A study of Homo sapiens with 3 samples.

Results

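The peaks described here are the 669 Flag-USP39 peaks that the authors' deposited annotation classes as promoter peaks, of 11565 Flag-USP39 peaks in all. Each peak was taken once, with the transcript whose start site lay nearest to the peak centre, and was a member where that transcript carried the promoter class. The choice rested on this class, which bounds the position, and not on tags, scores or POLR2A overlap. The study held 3 chromatin immunoprecipitation (ChIP-seq) libraries of A2780, a human ovarian cancer cell line that the labels call serous: an anti-Flag precipitation from A2780 cells with Flag-USP39, a POLR2A precipitation that served as positive control, and a common input, for which 10% of genomic DNA was taken. There was 1 library in each group, and both peak lists were called against the same input, so no test between groups was possible and every interval covers counting error only. The sources used here do not say how Flag-USP39 was introduced, whether the cells used for POLR2A and input also carried it, or whether an anti-Flag precipitation of cells without Flag-USP39 was made.

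USP39 is a spliceosomal protein of the ubiquitin-specific protease family that lacks the catalytic residues of an active protease, and it helps the U4/U6.U5 tri-snRNP to join the spliceosome. Splicing takes place largely while RNA polymerase II is still transcribing, so spliceosomal proteins can be recovered with chromatin at transcribed genes. POLR2A is the largest subunit of RNA polymerase II, which gathers at start sites and pauses a short way downstream of them. The RNA polymerase III genes, among them those for the RNAs of RNase P, RNase MRP, 7SK and the signal recognition particle, are transcribed by another enzyme.

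Sequences upstream of 5 member genes are printed as examples: a hair keratin, a hair keratin-associated protein, a linker histone, an hnRNP protein and a nucleolar protein, each of which had a Flag-USP39 peak that overlapped a POLR2A peak. The 5 genes were picked by hand and do not represent the members, of which keratin and keratin-associated genes had 41 of 669. The printed sequences need not lie inside the peaks, since the HNRNPA0 summit, for example, lay at +705 bp. They are the 250 bases before the RefSeq start site of assembly GRCh38.p14, 5' to 3' on the gene's strand, with TATAAA and GGGCGG in capitals; the peaks themselves are in hg19 coordinates, and the assemblies were related by gene symbol alone.
KRT31, chr17:41397609-41397858, minus strand: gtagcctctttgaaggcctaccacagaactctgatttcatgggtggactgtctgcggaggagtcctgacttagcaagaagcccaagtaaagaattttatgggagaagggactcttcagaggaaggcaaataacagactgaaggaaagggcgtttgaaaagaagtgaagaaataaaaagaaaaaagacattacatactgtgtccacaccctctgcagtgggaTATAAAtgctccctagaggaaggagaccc
KRTAP11-1, chr21:30881581-30881830, minus strand: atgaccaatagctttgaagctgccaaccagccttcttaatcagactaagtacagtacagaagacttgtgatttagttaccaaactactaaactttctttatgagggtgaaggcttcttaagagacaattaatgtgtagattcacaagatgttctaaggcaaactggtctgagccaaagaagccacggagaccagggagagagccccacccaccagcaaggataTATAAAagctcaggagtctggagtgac
HIST1H1C (H1-2 in RefSeq), chr6:26056471-26056720, minus strand: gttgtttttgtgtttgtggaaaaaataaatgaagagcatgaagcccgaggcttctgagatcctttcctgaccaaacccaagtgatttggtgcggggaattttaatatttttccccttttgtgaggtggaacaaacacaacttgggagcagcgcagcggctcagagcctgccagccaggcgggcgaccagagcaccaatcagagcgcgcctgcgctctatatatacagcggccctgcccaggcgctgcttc
HNRNPA0, chr5:137754364-137754613, minus strand: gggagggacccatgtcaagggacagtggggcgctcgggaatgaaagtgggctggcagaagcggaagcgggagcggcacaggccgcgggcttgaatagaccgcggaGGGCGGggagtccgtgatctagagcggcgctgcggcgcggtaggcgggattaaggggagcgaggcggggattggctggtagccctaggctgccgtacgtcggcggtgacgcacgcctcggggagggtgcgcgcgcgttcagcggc
NOL12, chr22:37686093-37686342, plus strand: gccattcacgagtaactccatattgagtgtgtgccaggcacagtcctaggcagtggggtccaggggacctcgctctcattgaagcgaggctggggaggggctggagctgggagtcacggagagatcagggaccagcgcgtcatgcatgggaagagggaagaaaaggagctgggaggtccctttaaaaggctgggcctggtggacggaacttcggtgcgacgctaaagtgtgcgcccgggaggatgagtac
The keratin promoters each held 1 TATAAA, whose first base lay at -29 in KRT31 and at -27 in KRTAP11-1 relative to the start site. Their GC contents were 44.8% and 43.2%. The HNRNPA0 promoter held 1 GGGCGG, the core of a GC box, and had a GC content of 70.4%. The HIST1H1C and NOL12 promoters held neither exact motif. Variants of TATAAA were not searched, and the printed HIST1H1C letters do hold a tatatata run.

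Promoter peaks were a small share of the Flag-USP39 list and a larger one of the POLR2A list. Of all Flag-USP39 peaks 5.78% had the promoter class, against 17.9% of all POLR2A peaks (2509 of 14027). Of the 669 members, 135 overlapped a POLR2A peak by 1 bp or more, which is 20.2% (95% Wilson interval 17.3 to 23.4%). The same overlap was found for 5.17% of the Flag-USP39 peaks of the other classes (563 of 10896) and for 6.04% of all Flag-USP39 peaks. Read from the other list, 144 of 2509 POLR2A promoter peaks met a Flag-USP39 peak (5.74%, 4.90 to 6.72%).

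The overlap followed the number of tags, the authors' count of sequenced fragments in a peak. Among peaks of 3 to 5 tags, 40 of 510 promoter peaks overlapped a POLR2A peak (7.84%, 5.81 to 10.5%), against 170 of 9833 peaks of the other classes (1.73%, 1.49 to 2.01%). Among peaks of 6 to 9 tags the shares were 37 of 94 promoter peaks (39.4%, 30.1 to 49.5%) and 155 of 790 others (19.6%, 17.0 to 22.5%). In both ranges the promoter peaks overlapped more often and the intervals did not meet. With 10 to 19 tags the promoter peaks no longer stood apart: 32 of 39 overlapped (82.1%, 67.3 to 91.0%), against 135 of 162 others (83.3%, 76.8 to 88.3%). With 20 tags or more, all 26 promoter peaks overlapped (100%, 87.1 to 100%) and 103 of 111 others did (92.8%, 86.4 to 96.3%). The fewest tags in any listed POLR2A peak were 4, and a missing overlap at a peak of few tags says little about the site.

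**Figure D1:**
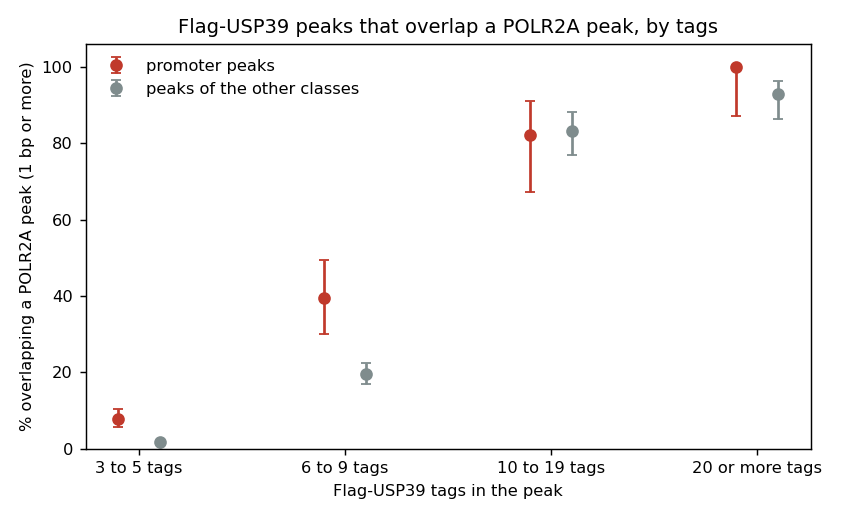
Share of Flag-USP39 peaks overlapping a POLR2A peak by 1 bp or more (vertical axis, percent) in 4 ranges of Flag-USP39 tags, for promoter peaks (red) and peaks of the other classes (grey); bars are 95% Wilson intervals. The promoter share is above the other share at 3 to 5 tags (7.84% against 1.73%) and at 6 to 9 tags (39.4% against 19.6%), and the intervals overlap from 10 tags on.

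Members with a POLR2A peak were the larger ones. They had a median of 8 tags (order-statistic interval 7 to 10, quartiles 5 and 14, range 3 to 278), against 4 tags (3 to 4, range 3 to 13) in the 534 members without a POLR2A peak. There were 6 tags or more in 95 of 135 members with a POLR2A peak (70.4%, 62.2 to 77.4%) and in 64 of 534 without (9.50 to 15.0%). Exactly 3 tags, the fewest in the list, were found in 11 members with a POLR2A peak and in 244 without. The median length was 508 bp with a POLR2A peak and 299 bp without, and the median of the deposited fold enrichment over background was 37.7 with a POLR2A peak and 32.65 without. The 135 members with a POLR2A peak held 2954 tags and the 534 without held 2174. The 10 members with the most tags alone held 30.1% of the 5128 tags of all members.

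At the 135 shared sites the peaks of both lists lay close together. The Flag-USP39 summit, the base with the highest pile-up, was a median of 65 bp from the POLR2A summit (55 to 89 bp), within 100 bp of it at 80 sites (59.3%) and over 500 bp from it at 12. The POLR2A peak had the promoter class at 132 sites, the upstream class at 2 and the intergenic class at 1, and was annotated to the same gene at 126. It covered a median of 91.6% of the Flag-USP39 peak. The number of Flag-USP39 tags was above the number of POLR2A tags at 56 sites, equal at 8 and below at 71, with a median ratio of Flag-USP39 to POLR2A tags of 0.941 (0.800 to 1.01). Across the 135 sites Spearman's rho of the tags was 0.67, a description only, since both libraries share the input and a site enters only when called in both. The sources used here do not give total tags per library, so the ratio is not a measure of occupancy.

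**Figure D2:**
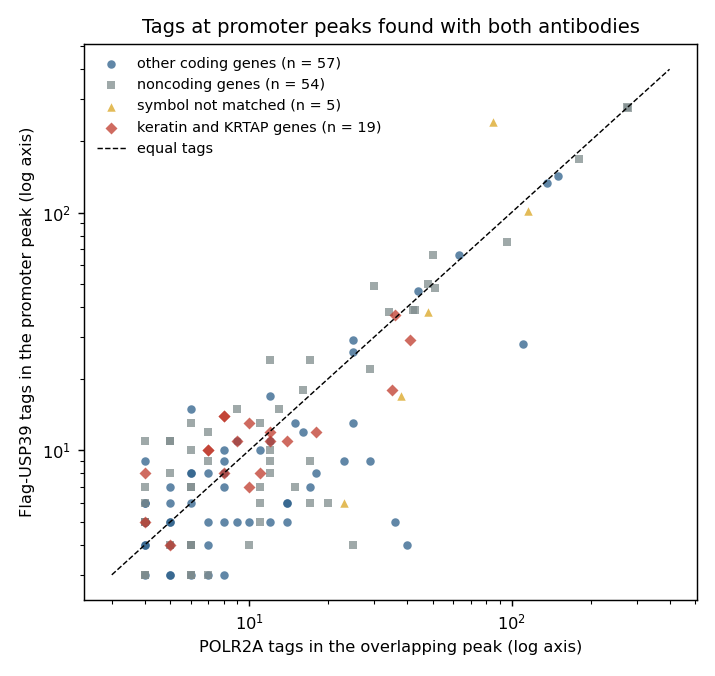
Flag-USP39 tags (vertical log axis) against POLR2A tags (horizontal log axis) at the 135 promoter peaks found with both antibodies, marked by gene kind; the dashed line marks equal tags. The sites with over 100 tags lie near the line except MIR3687-2, with 241 Flag-USP39 and 85 POLR2A tags, while WDR74, with 28 Flag-USP39 and 111 POLR2A tags, lies below it.

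Positions around the start site differed in spread more than in centre. The summit lay at a median of +192 bp (154 to 280 bp; positive means downstream of the start site in the direction of transcription) in members with a POLR2A peak and at +142 bp (9 to 282 bp) in members without. In the POLR2A list the median promoter summit was at +68 bp (55 to 79 bp). The median distance regardless of side was 529 bp with a POLR2A peak (333 to 667 bp) and 980 bp without (902 to 1085 bp), against 256 bp for POLR2A promoter peaks (237 to 280 bp). The summit lay within 250 bp of the start site in 45 of 135 members with a POLR2A peak (33.3%, 25.9 to 41.6%) and in 67 of 534 without (12.5%, 10.0 to 15.6%), against 49.6% of POLR2A promoter peaks. The start site itself lay inside the peak in 44 members with a POLR2A peak (32.6%) and in 59 without (11.0%), against 53.1% of POLR2A promoter peaks.

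This difference in nearness was also seen within tag ranges. Among members of 6 tags or more, the summit lay within 250 bp in 30 of 95 with a POLR2A peak (31.6%, 23.1 to 41.5%) and in 9 of 64 without (14.1%, 7.58 to 24.6%); these intervals overlap. Among members of fewer than 6 tags the counts were 15 of 40 with a POLR2A peak (37.5%, 24.2 to 53.0%) and 58 of 470 without (12.3%, 9.67 to 15.6%). Read the other way, a POLR2A peak was present at 45 of the 112 members whose summit lay within 250 bp (40.2%, 31.6 to 49.4%) and at 20 of the 146 whose summit lay over 1500 bp away (13.7%, 9.05 to 20.2%).

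Members without a POLR2A peak were spread over the whole promoter window, with 21 to 43 peak centres in each 250 bp bin from -2000 to +2000 bp. Members with a POLR2A peak had 69 of their 135 centres between 0 and +750 bp, in 3 bins of 25, 26 and 18. The summit was downstream of the start site in 94 of 135 members with a POLR2A peak (69.6%, 61.4 to 76.8%) and in 292 of 534 without (54.7%, 50.4 to 58.9%), against 59.2% of POLR2A promoter peaks. This gap lay in the members of fewer than 6 tags, with 32 of 40 downstream with a POLR2A peak (80.0%, 65.2 to 89.5%) and 250 of 470 without (53.2%, 48.7 to 57.7%). Among members of 6 tags or more it was absent, with 62 of 95 downstream with a POLR2A peak (65.3%, 55.3 to 74.1%) and 42 of 64 without (65.6%, 53.4 to 76.1%). The order of the median summits turned there, to +186 bp with a POLR2A peak (119 to 308 bp) and +352.5 bp without (37 to 943 bp), with intervals that overlap. POLR2A promoter peaks that met a Flag-USP39 peak had their summit farther downstream, at a median of +270.5 bp (151 to 382 bp), than POLR2A promoter peaks that met none, at +61 bp (49 to 73 bp).

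**Figure D3:**
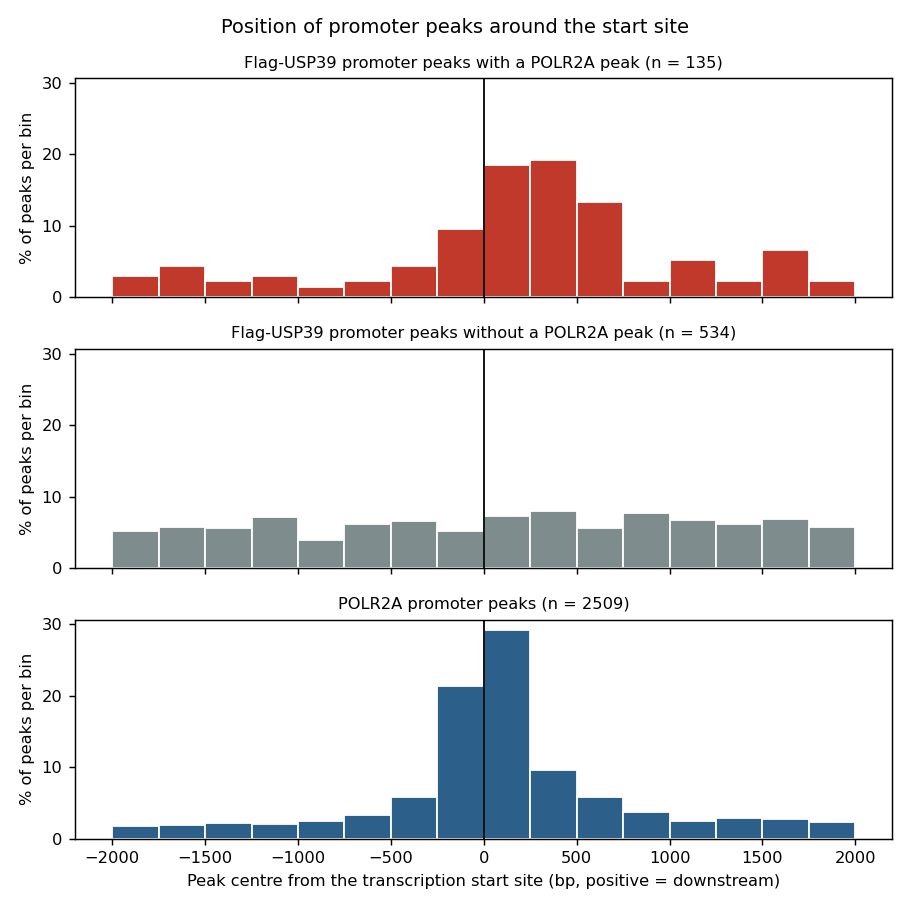
Percent of peaks per 250 bp bin of the distance from peak centre to start site (horizontal axis, bp, positive downstream) for Flag-USP39 promoter peaks with a POLR2A peak, Flag-USP39 promoter peaks without one, and POLR2A promoter peaks. The first set is highest from 0 to +750 bp, the second is spread at 21 to 43 peaks per bin, and the POLR2A peaks gather within 250 bp of the start site.

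Values by the orientation of the gene differed only within overlapping intervals. Of members at minus-strand genes 85 of 361 had a POLR2A peak (23.5%, 19.5 to 28.2%), against 50 of 308 at plus-strand genes (16.2%, 12.5 to 20.8%). Summits of members with a POLR2A peak lay at a median of +187 bp on the minus strand (133 to 300 bp) and +197 bp on the plus strand (117 to 505 bp). In members without a POLR2A peak they lay at +239.5 bp on the minus strand (78 to 362 bp) and at +16 bp on the plus strand (-252 to 277 bp). Part of the minus-strand excess came with the keratin genes described below, 37 of whose 41 peaks were on minus-strand genes: among the other members the overlap was 67 of 324 on the minus strand (20.7%, 16.6 to 25.4%) and 49 of 304 on the plus strand (16.1%, 12.4 to 20.7%). Promoter transcripts on both strands were annotated for 48 members, 12 of them with a POLR2A peak, so at those sites the sign depends on which start site is nearer.

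**Figure D4:**
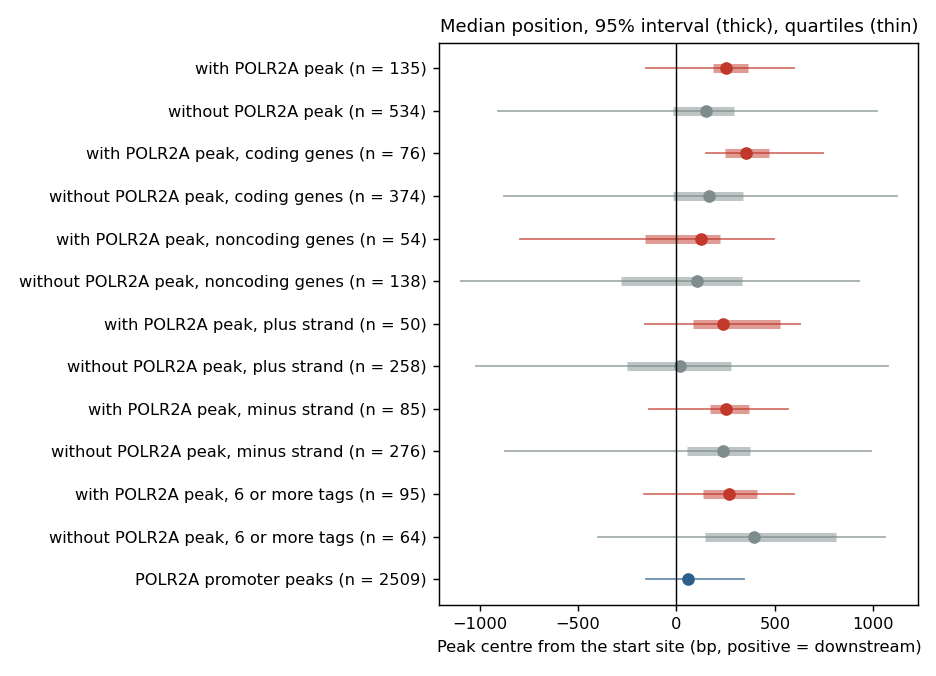
Median distance from peak centre to start site (points, bp, positive downstream) with its 95% interval (thick bars) and quartiles (thin lines), for Flag-USP39 promoter peaks with a POLR2A peak (red) and without one (grey), split by gene kind, strand and tags, and for POLR2A promoter peaks (blue). Medians lie downstream in each set, and the quartiles are wider in the sets without a POLR2A peak.

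Gene kind was taken from RefSeq by symbol for 642 of the 669 members. Coding genes had 450 members and noncoding genes 192. As shares of all genes in the RefSeq table, 438 of 20056 coding genes (2.18%) were members, against 1892 with a POLR2A promoter peak (9.43%). Of 39736 noncoding genes 182 (0.458%) were members, against 383 with a POLR2A promoter peak (0.964%). Noncoding here means every gene of that table not classed as protein coding, pseudogenes included. How many of them the authors' annotation held was not known, so both noncoding shares may be too low as a background. A POLR2A peak overlapped 54 of the 192 noncoding members (28.1%, 22.2 to 34.9%) and 76 of the 450 coding members (16.9%, 13.7 to 20.6%). Among members of 6 tags or more the shares were 39 of 57 noncoding (68.4%, 55.5 to 79.0%) and 51 of 94 coding (54.3%, 44.2 to 64.0%), with intervals that overlap.

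Coding genes were 76 of 130 matched members with a POLR2A peak (58.5%, 49.9 to 66.6%) and 374 of 512 without (73.0%, 69.0 to 76.7%), against 82.6% of POLR2A promoter peaks. The summit of coding members with a POLR2A peak lay at a median of +253 bp (187 to 546 bp), downstream in 61 of 76 (80.3%, 70.0 to 87.7%). In noncoding members with a POLR2A peak it lay at +126 bp (-160 to 221 bp), downstream in 31 of 54 (57.4%, 44.2 to 69.7%). Without a POLR2A peak the medians were +161.5 bp for coding and +105 bp for noncoding genes. Peaks of coding members reached into the annotated transcript in 66 of 76 with a POLR2A peak (86.8%, 77.4 to 92.7%) and in 223 of 374 without (59.6%, 54.6 to 64.5%).

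The noncoding classes shared a POLR2A peak in varying proportions, with intervals that mostly overlap. Only the interval of the Cajal body RNAs lay apart from those of transcribed pseudogenes, microRNAs and long noncoding RNAs. The classes were not split by tags, which the overlap followed. Small nucleolar RNAs, which guide chemical modification of ribosomal RNA, did so in 11 of 23 members (47.8%, 29.2 to 67.0%), and the 4 Cajal body RNAs SCARNA2, SCARNA5, SCARNA7 and SCARNA10, guides for spliceosomal snRNAs, in 4 of 4 (51.0 to 100%). Transcribed pseudogenes did so in 11 of 33 (33.3%, 19.8 to 50.4%), microRNAs in 12 of 55 (21.8%, 12.9 to 34.4%) and long noncoding RNAs in 14 of 73 (19.2%, 11.8 to 29.7%). Each of the 4 Cajal body RNA peaks covered part of the transcript itself, with summits at +83, +93, +119 and +195 bp. SCARNA10 had 22 Flag-USP39 and 29 POLR2A tags, while SCARNA2 had 8 Flag-USP39 and 5 POLR2A tags. SCARNA5 had 7 Flag-USP39 and 15 POLR2A tags, and SCARNA7 had 7 Flag-USP39 and 6 POLR2A tags. In contrast, 8 of the 23 small nucleolar RNA members reached into the annotated transcript (34.8%, 18.8 to 55.1%). These were 4 of the 11 with a POLR2A peak and 4 of the 12 without. Likewise, 6 of the 43 microRNA members without a POLR2A peak reached into the short annotated hairpin, against 7 of the 12 with one. Which gene the other peaks belong to was not tested.

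Genes of RNA polymerase III were among the noncoding members with many tags. RPPH1, the RNA of RNase P, had 48 Flag-USP39 and 51 POLR2A tags, with the summits 1 bp apart and the Flag-USP39 summit at +144 bp. RMRP, the RNA of RNase MRP, had 38 Flag-USP39 and 34 POLR2A tags, with the Flag-USP39 summit at +143 bp. Some peaks annotated to coding genes lay beside genes for abundant small RNAs. The RPS29 peak on chromosome 14 (50053244 to 50053788, 143 Flag-USP39 and 150 POLR2A tags) and the GSTA4 peak on chromosome 6 (52860368 to 52860811, 133 Flag-USP39 and 136 POLR2A tags) lay upstream of those genes, at -333 and -433 bp. In the RefSeq table, RN7SL1, a signal recognition particle RNA gene, lies beside RPS29, and RN7SK, the 7SK RNA gene, beside GSTA4. WDR74, whose peak at -1574 bp had 28 Flag-USP39 and 111 POLR2A tags, has RNU2-2 beside it, a gene for the U2 snRNA, which RNA polymerase II transcribes. These were chosen for mention after their values were seen, and which of the neighbouring genes a peak belongs to was not tested.

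The members with the most tags of all lay at other kinds of site. LINC00273 on chromosome 16 (33962831 to 33964291) had 278 Flag-USP39 and 275 POLR2A tags, at a fold enrichment of 11.46. DDX11L1 on chromosome 1 (9910 to 10549) had 274 Flag-USP39 and 279 POLR2A tags, and LOC102723376 on chromosome 18 (9980 to 10506) had 75 Flag-USP39 and 96 POLR2A tags; both peaks lie at the very start of the assembled chromosome. MIR3687-2 on chromosome 21 had 241 Flag-USP39 and 85 POLR2A tags, at a fold enrichment of 8.77, and MIR663AHG on chromosome 20 had 66 Flag-USP39 and 50 POLR2A tags, at a fold enrichment of 5.24, the lowest of all members. SNORD141A was the nearest start site of 4 members on several chromosomes, with 168 Flag-USP39 and 181 POLR2A tags on chromosome 9 and 49 Flag-USP39 and 30 POLR2A tags on chromosome 6. The chromosome 6 site lies downstream of the EEF1A1 start site, beside the EEF1A1 member described below. In the RefSeq table EEF1A1P5, a pseudogene of that translation factor gene, lies beside a SNORD141A copy. The sources used here do not say how reads from repeated sequence were placed, so counts at such copies are uncertain.

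Several peaks had very high fold enrichment. CASC4, which encodes a membrane protein, had 66 Flag-USP39 and 63 POLR2A tags at a fold enrichment of 659.8, the highest of all members, with its summit at -190 bp. MIR6766 had 50 Flag-USP39 and 48 POLR2A tags at a fold enrichment of 439.86. COL6A1, a collagen VI chain, had 47 Flag-USP39 and 44 POLR2A tags at 293.85, and PAXBP1, a PAX-binding protein, had 26 Flag-USP39 and 25 POLR2A tags at 282.96. At each of these 4 sites Flag-USP39 and POLR2A tags differed by 1 to 3.

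Close to the start site, the member of 6 tags or more nearest by its centre was NOL12 on chromosome 22 (38081972 to 38082671), which encodes a nucleolar RNA-processing protein. It had 6 Flag-USP39 and 5 POLR2A tags, with its centre at -22 bp and its summit at +130 bp. The next were ACP5, an acid phosphatase (7 tags, centre at 54 bp, no POLR2A peak), PAXBP1 (centre at -57 bp), the SNORD141A site on chromosome 6 and MIR4426 (9 Flag-USP39 and 17 POLR2A tags, centre at 71 bp).

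Members without a POLR2A peak reached at most 13 tags, at the pseudogene REXO1L2P. They were followed by KRT85, a hair keratin, with 12 tags, MIR205 with 12, MIR1244-4 with 11, and SLC7A8, an amino acid transporter, ZC3H10, a zinc finger gene, and KRT83, another hair keratin, with 10 each. TCHH (trichohyalin, a protein of the hair follicle), ARF6 (a small GTPase), KRT81, SH3BP5-AS1 and S100A16 had 9 each. The ZC3H10 peak was annotated to 2 symbols, and RPL41 lies beside ZC3H10 in the RefSeq table. KRT85, KRT81 and MIR1244-4 each also had another member peak that did overlap a POLR2A peak. The highest fold enrichments of members without a POLR2A peak were those of SNORA104 (87.07, 8 tags) and PANDAR (76.18, 8 tags), a long noncoding RNA beside CDKN1A, followed by CACNA1H, a calcium channel gene (65.3, 6 tags). MIR205, an epithelial microRNA, had its peak on chromosome 1 (209603709 to 209605057) with the summit at -618 bp. Its host gene MIR205HG had a separate peak of 15 Flag-USP39 tags that overlapped one of 13 POLR2A tags. The mature microRNA, with its seed in capitals, is given from RefSeq.
hsa-miR-205-5p, chr1:209432166-209432187 of GRCh38.p14, plus strand: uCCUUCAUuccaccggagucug

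Keratin genes stood out among the members once their values were seen, so they are described without a test. Keratins form the intermediate filaments of epithelia and, with the keratin-associated proteins, the hair shaft. A promoter peak was present at 19 of 55 keratin genes with Flag-USP39 (34.5%) and at 19 of 55 with POLR2A, 13 of them in both lists, set beside 2.18% and 9.43% of all coding genes. For keratin-associated protein genes the counts were 14 of 94 with Flag-USP39 (14.9%) and 9 of 94 with POLR2A (9.57%), 4 of them in both. Together they gave 41 members, 15 on chromosome 12, 20 on chromosome 17 and 6 on chromosome 21, where these genes form clusters.

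The strongest were KRT14, a keratin of the basal epidermis, with 37 Flag-USP39 and 36 POLR2A tags, and KRTAP11-1, of the promoter printed above, with 29 Flag-USP39 and 41 POLR2A tags. KRT5, the partner of KRT14 in the basal epidermis, had 1 peak of 18 Flag-USP39 and 35 POLR2A tags and another of 12 Flag-USP39 and 12 POLR2A tags. KRT31, also printed above, had 14 Flag-USP39 and 8 POLR2A tags. KRT71 and KRT25, keratins of the inner root sheath of the hair follicle, also had peaks in both lists: KRT71 had 13 Flag-USP39 and 10 POLR2A tags, and KRT25 had 12 Flag-USP39 and 18 POLR2A tags. KRT85 had 4 peaks, of which 1 overlapped a POLR2A peak. Outside the keratins, SFN, the epithelial 14-3-3 sigma protein, had 29 Flag-USP39 and 25 POLR2A tags, and DSG1-AS1, an RNA antisense to a desmosomal cadherin gene, had 39 Flag-USP39 and 43 POLR2A tags.

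A POLR2A peak overlapped 19 of the 41 keratin and keratin-associated members (46.3%, 32.1 to 61.3%), against 116 of the 628 other members (18.5%, 15.6 to 21.7%). Their median was 7 tags (5 to 10), against 4 in the others. Their summits lay at a median of +308 bp (214 to 565 bp), downstream in 35 of 41 (85.4%, 71.6 to 93.1%), against +143.5 bp (76 to 243 bp) and 351 of 628 (55.9%, 52.0 to 59.7%) in the others. Without these genes, the share of downstream summits was 64.7% in members with a POLR2A peak (75 of 116, 55.6 to 72.8%) and 53.9% in members without (49.6 to 58.2%), and these intervals overlap.

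The marker genes counted here were too few to show the labelled cell type in the promoter peaks. Promoter peaks lay at 2.18% of all coding genes with Flag-USP39 and at 9.43% with POLR2A. A count of none among 10 or 15 genes lies near these shares. None of 10 markers of epithelial ovarian carcinoma, among them PAX8, WT1, EPCAM, KRT8 and KRT18, had a promoter peak in the Flag-USP39 list or in the POLR2A list. None of 15 markers of blood, liver, muscle, neuron and endothelium had a Flag-USP39 promoter peak, and 1, the muscle factor MYOD1, had a POLR2A promoter peak. A missing peak at this depth does not show that a gene was silent, and what the keratin peaks have to do with the cells in the libraries was not tested.

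The promoter letters of the coding members were compared with those of all coding genes in windows of 300 bases, 250 before and 50 after the start site, 1 per gene. Of the 645 symbols of the members, 384 had a window. TATAAA, on either strand, was found in 12 of 51 windows of coding genes with a POLR2A peak (23.5%, 14.0 to 36.8%) and in 35 of 283 without (12.4%, 9.03 to 16.7%), against 9.75% of all 15843 coding windows. The keratin and keratin-associated genes held it in 16 of 24 windows (66.7%, 46.7 to 82.0%). Without them it was found in 5 of 40 windows with a POLR2A peak (12.5%, 5.46 to 26.1%) and in 26 of 270 without (9.63%, 6.66 to 13.7%). GGGCGG, on either strand, was found in 4 of the 24 keratin windows (16.7%), in 49.0% of all windows with a POLR2A peak and in 56.5% of those without, against 58.3% of all coding windows. Without the keratin and keratin-associated genes it was in 57.5% of windows with a POLR2A peak and in 58.5% of those without, near the share of all coding windows. CCAAT was found in 37.3% of windows with a POLR2A peak and in 31.4% of those without, against 36.4% of all coding windows, so its shares lay near the background. TGACGTCA was found in 1.96% of windows with a POLR2A peak and 2.12% of those without, against 2.56% of all coding windows. For TGANTCA the shares were 5.88% with a POLR2A peak and 7.42% without, against 5.70%. The median GC content was 44.0% in the keratin windows, 56.3% with a POLR2A peak and 61.7% without, against 62.7% over all coding windows, and without the keratin and keratin-associated genes it was 58.2% with a POLR2A peak and 62.7% without.

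The other gene lists were described by their counts beside 2.18% of all coding genes for Flag-USP39 and 9.43% for POLR2A. Histone genes, which encode the proteins that package DNA, had a Flag-USP39 promoter peak at 11 of 90 genes (12.2%, 6.96 to 20.6%), against 48 with POLR2A (53.3%), and 9 had both. Their peaks were small, from 3 tags at HIST1H4L to 9 at HIST1H1C, the linker histone gene of the promoter printed above, which had 29 POLR2A tags. Of the 11 peaks, 9 overlapped a POLR2A peak, and the median summit was at +199 bp, with all 11 downstream of the start site, from +76 bp at HIST1H4F to +1554 bp at H3F3B. Most are short genes without introns.

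Cytosolic ribosomal protein genes had a Flag-USP39 promoter peak at 8 of 87 (9.20%, 4.73 to 17.1%), against 37 with POLR2A (42.5%). Apart from RPS29 their peaks held 3 to 10 tags, with RPL15 the highest (10 Flag-USP39 and 11 POLR2A tags, summit at +1669 bp) and RPS23 next (8 Flag-USP39 and 6 POLR2A tags, at +672 bp). Cytoskeletal genes had 3 of 28: ACTB, which encodes beta-actin (11 Flag-USP39 and 12 POLR2A tags, +1311 bp), TMSB4X, an actin-binding peptide (9 Flag-USP39 and 4 POLR2A tags, +1859 bp), and ACTG1, gamma-actin (8 Flag-USP39 tags, no overlapping POLR2A peak, +880 bp). POLR2A had 11 of these 28, and all 3 genes named were among them. The POLR2A promoter peak of ACTG1 thus lay apart from its Flag-USP39 peak. The translation factor gene EEF1A1 was the only one of its 37 with a Flag-USP39 promoter peak (9 Flag-USP39 and 23 POLR2A tags, +1055 bp), against 11 with POLR2A. That POLR2A peak was annotated to SNORD141A. The chromosome 6 SNORD141A member of 49 Flag-USP39 tags (74226898 to 74229295) lies beside the EEF1A1 peak (74229527 to 74229875), farther downstream of the EEF1A1 start site. Which gene these peaks belong to was not tested. In these families the summits lay mostly over 500 bp downstream of the start site.

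Genes of the spliceosome core were members at about the share of all coding genes. Of 48 tri-snRNP and core spliceosome genes only CDC5L, a component of the spliceosome core, had a Flag-USP39 promoter peak, of 3 tags (2.08%, 0.369 to 10.9%), against 7 with POLR2A. Of 38 SR and hnRNP genes, which encode splicing regulators, 3 were members, HNRNPH1, HNRNPA0 and SRSF10 with 6 tags each (7.89%, 2.72 to 20.8%), against 18 with POLR2A (47.4%). Of 51 ubiquitin-specific protease genes only USP38 was a member, with 3 tags at +185 bp and a POLR2A peak of 5 tags, against 7 with POLR2A. The list left out the USP17-like genes, of which USP17L11 was a member with 9 tags at +1498 bp and no POLR2A peak. USP39 itself had no promoter peak in either list, the POLR2A gene had 1 in the POLR2A list and none in the Flag-USP39 list, and HMGA2, an architectural chromatin gene, had 2 in the POLR2A list and none in the Flag-USP39 list. None of the 41 spliceosomal snRNA genes of the list was a member, against 6 with a POLR2A promoter peak; SNAR-E, which RefSeq classes as an snRNA and which was not in the list, had a peak of 3 tags at -287 bp and no POLR2A peak. Likewise, none of 30 G2 and mitosis genes was a member, against 3 with POLR2A.

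The remaining coding lists held few members of few tags. RNA polymerase II and general factor genes had 1 of 44, GTF2A1 with 4 tags, against 9 with POLR2A. Heat shock genes had 1 of 18, the small chaperone gene HSPB1 with 3 tags, against 6 with POLR2A, and glycolysis genes had 1 of 18, the phosphofructokinase gene PFKM with 3 tags, against 5 with POLR2A. Immediate early genes had 2 of 25, the transcription factor genes FOS with 5 tags and EGR3 with 4, against 8 with POLR2A. Zinc finger genes named ZNF had 13 of 509 (2.55%), of 3 to 8 tags and 1 with a POLR2A overlap, against 51 with POLR2A (10.0%), so both shares were near those of all coding genes. Olfactory receptor genes, which are silent in most tissues, had 3 of 390 (0.769%), against 6 with POLR2A (1.54%). Among noncoding lists, set beside 0.458% and 0.964% of all noncoding genes, snoRNA and Cajal body RNA genes had 23 of 573 (4.01%) with Flag-USP39 and 46 (8.03%) with POLR2A, and microRNA genes had 56 of 1913 (2.93%) with Flag-USP39 and 104 (5.44%) with POLR2A. Antisense RNA genes had 28 of 2066 (1.36%) with Flag-USP39 and 66 (3.19%) with POLR2A, and LINC RNA genes 21 of 2304 (0.911%) with Flag-USP39 and 33 (1.43%) with POLR2A. The noncoding background counts pseudogenes too and may be too low, so a list share above it says little.

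**Figure D5:**
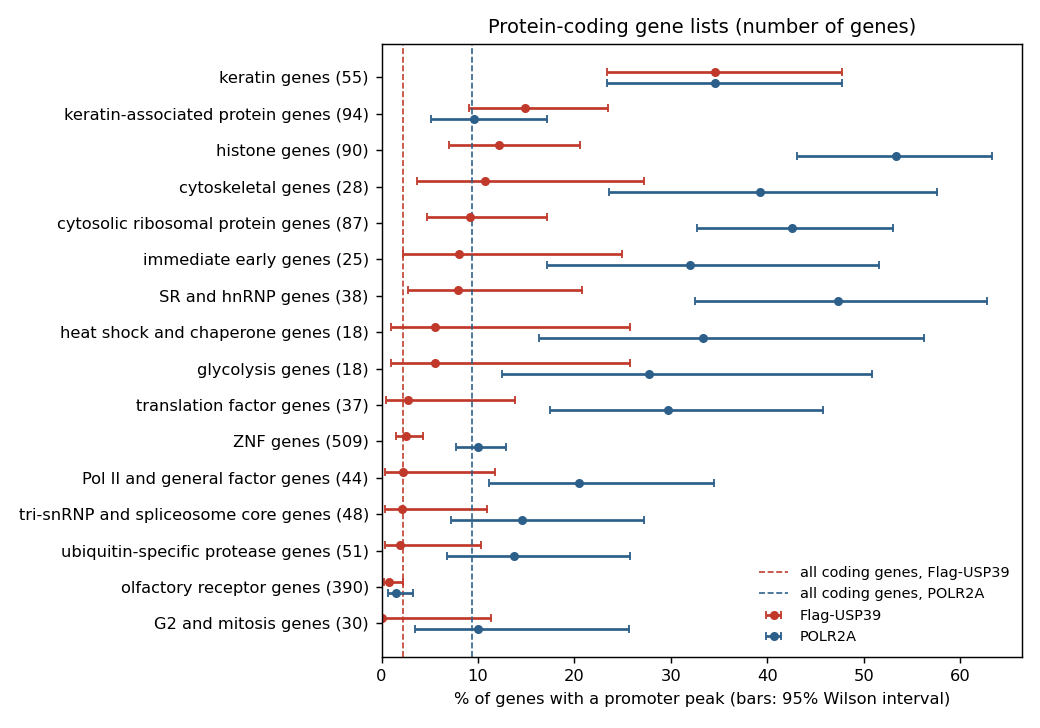
Share of genes with a promoter peak (horizontal axis, percent, bars 95% Wilson intervals) in Flag-USP39 (red) and POLR2A (blue) for 16 lists of coding genes, with the number of genes in brackets; dashed lines mark 2.18% and 9.43% of all coding genes. Keratin genes have the highest Flag-USP39 share, 34.5%, equal to their POLR2A share, while histone genes reach 12.2% with Flag-USP39 and 53.3% with POLR2A.

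Members could share genes: 18 symbols had 2 promoter peaks or more, and 94 peaks were annotated to 2 symbols or more, 19 of them with start sites of different symbols at the same distance. The limit of the promoter class lay near 2 kb. Just inside it were MIR5047 (11 tags, centre at -1998 bp, with a POLR2A peak), MIR8085 (4 tags, -1993 bp) and SLC1A3 (3 tags, 1991 bp). Just outside were OR2A5 (4 tags, -2004 bp), RPS24 (11 tags, 2008 bp, with a POLR2A peak) and FANCC (4 tags, -2009 bp).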

How the data were processed

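Peak annotation tables of the Flag-USP39 and POLR2A libraries of A2780 cells were used, each headed as that precipitation against input, per the file headers. Per the submitters' processing notes, Bowtie2 2.2.4 and MACS 1.4.3 were among the tools and hg19 was the build; for duplicate handling, library totals and annotation release, nothing was given in the sources used here. Tag counts were deposited as whole numbers of tags within a peak and were not normalized. Per the file headers, the score is 10 times the negative log10 of a p-value, with lowest values of 50 for Flag-USP39 and 40 for POLR2A. The authors' fold enrichment is a ratio of precipitation to background on a linear scale, and the authors' FDR is in percent. Scores and folds are the authors' own values for each peak and served to describe, rank or filter peaks within a list. The Flag-USP39 peaks held 62327 tags and the POLR2A peaks 86228, and a median promoter peak of 4 tags carries a wide counting error.

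The 20273 and 27766 table lines were reduced to 1 per peak by the start site nearest to the peak centre, which the deposited distance measures; ties went to one transcript by a fixed order. Summits were placed from the deposited peak start and summit columns. Overlaps needed 1 bp. Shares have Wilson intervals and medians order-statistic intervals, at 95%, over peaks of 1 library; they cover counting error only, and no p-value was computed. Gene kinds, neighbouring genes and sequences came from RefSeq tables of GRCh38.p14, matched by symbol, with the most upstream start kept for each gene. The motifs TATAAA and GGGCGG were searched on both strands in promoter windows. CCAAT, TGACGTCA and TGANTCA were searched in the same way. The scripts (Python 3.11.15, pandas 2.3.3, numpy 2.4.6, SciPy 1.17.1) were tested on simulated peak lists.

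The members and gene lists were chosen with earlier results of these data known, and the keratin lists after these values were seen. Named genes are those on chromosomes 1 to 22 and X with the 12 highest tag counts, 5 highest folds and 5 highest noncoding tag counts with and without a POLR2A peak, the 5 nearest to a start site with 6 tags or more, up to 3 per list, and USP39, POLR2A and HMGA2; others were named after their values were seen. Alternatives were promoters within 1 kb, any promoter transcript, a score of at least 100, at least 6 tags, chromosomes 1 to 22 and X, a POLR2A peak covering most of the peak, of score 50 or of promoter class, the summit, the accession prefix and, added after seeing the data, leaving out keratin genes.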

Additional observations from a re-analysis of the deposited data

How the results depend on the processing

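Stricter settings left fewer members and larger shares with a POLR2A peak, and in each the smaller counts follow from its own construction. The 1 kb limit also shortens the median distance by construction. The limit of 6 tags likewise raises the median tags, and the overlap followed the number of tags among all members. A score limit keeps the stronger peaks. Promoters within 1 kb left 366 members, 26.2% with a POLR2A peak, 61.5% downstream, a median distance of 409.5 bp and 93 genes of the lists in place of 177. A score of at least 100 left 76 members, 86.8% with a POLR2A peak, 67.1% downstream, a median distance of 547 bp and 28 list genes; median tags were 13.5 with a POLR2A peak and 8.5 without, the median position was 251 bp with a POLR2A peak and 551.5 bp without, 66.7% with and 70% without were downstream, and 54.7% with and 77.8% without were at coding genes. At least 6 tags left 159 members, 59.7% with a POLR2A peak, a median position of 291 bp, 66.0% downstream, a median distance of 675 bp and 60 list genes; median tags were 11 with a POLR2A peak and 7 without, the median position was 267 bp with a POLR2A peak and 394.5 bp without, and 66.3% with and 65.6% without were downstream. In both settings the order of the median positions with and without a POLR2A peak thus turned from that of all members (251 bp with, 148.5 bp without). At a score of at least 100 the order of the downstream shares did too. All these intervals overlap, so neither order is established. At a score of at least 100 the median position had an interval of 84 to 471 bp with a POLR2A peak and -411 to 1427 bp without. The downstream share there had 54.7 to 76.8% with and 39.7 to 89.2% without. Requiring the POLR2A peak to cover at least 50% of the Flag-USP39 peak gave an overlap of 16.9%, and a POLR2A score of at least 50 gave 17.2%. Both settings only narrow what counts as an overlap among the same members, so these shares could not rise. Among these measures 93 values stayed within their interval or within 1.5 times of the count, 27 moved and no single value changed sign. Of the counts for single lists, 76 stayed and 38 moved. These tallies include settings that could not differ. Any promoter transcript and chromosomes 1 to 22 and X each returned the same 669 members, so all their values count as stayed. Leaving out keratin genes likewise left every single-list count as it was. The number of values that stayed is therefore no measure of stability. Leaving out the keratin and keratin-associated genes gave 628 members and 18.5% with a POLR2A peak. No paired analysis was possible because each group has 1 library. With few tags per peak, a site without a listed peak cannot be called unbound.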
